A study of Mus musculus with 2 samples.

Results

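The genes described here encode the complexes that methylate lysine 4 of histone H3 (H3K4). The measurement is trimethylated H3K4 (H3K4me3), a mark made by complexes of this family, mapped over the genes that encode them. The 10 genes were taken by name: Kmt2a, Kmt2b, Kmt2c, Kmt2d, Setd1a and Setd1b for the catalytic subunits, and Ash2l, Wdr5, Rbbp5 and Dpy30 for the core subunits that all 6 enzymes share. A peak belonged to a gene when it overlapped the gene plus 1 kb on either side. By that rule 12 of the 19265 peaks fell on the 10 genes, of 21887 protein-coding genes on the assembled chromosomes.

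The study examined neural progenitor cells from adult mice by chromatin immunoprecipitation and sequencing (ChIP-seq). The 2 samples are 1 library of H3K4me3 chromatin, labelled "con", and 1 library of input chromatin. Both came from cells in N2 medium with EGF and bFGF, with no further treatment. The strain, the sex and the number of animals are not given in the labels, and the header of the peak list names the H3K4me3 library after EGF. The H3K4me3 library held 18156769 tags after filtering and the input held 17831241. With 1 library of each kind analysed here, the values have no replicate check, their intervals cover counting error only, and no test between samples was possible. Of 4 progenitor genes checked (Sox2, Nes, Hes1 and Fabp7) all 4 had a peak, with fold enrichments over the input of 33.1 to 49.2. Of 6 genes of microglia, endothelium, oligodendrocytes and neuroblasts (Aif1, Itgam, Cdh5, Pecam1, Sox10 and Dcx) 1 had a peak, of 24 tags at Pecam1. The share with a peak over all protein-coding genes was 61.5%.

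H3K4me3 marks the starts of active and poised genes. In mammals it is laid down by complexes related to yeast COMPASS, each built from a SET-domain enzyme and a common core of Wdr5, Rbbp5, Ash2l and Dpy30, without which the enzymes have little activity. Setd1a and Setd1b carry out much of the bulk trimethylation, Kmt2a and Kmt2b act at selected promoters such as those of developmental genes, and Kmt2c and Kmt2d are known for monomethylation at enhancers. In mice Kmt2a is needed for neural stem cells of the postnatal brain to make neurons.

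The starts of these genes differ in CpG content, and 5 of them are shown for the results on start choice and CpG that follow. Each is the 250 bases before an annotated start, from RefSeq (GRCm38.p6, the assembly that mm10 names), written 5′ to 3′ on the strand of the gene with CpG dinucleotides in capitals. RefSeq's promoter table matched 7 of the 10 genes, all but Kmt2b, Setd1b and Ash2l, and gave 10 starts for them. Dpy30 is shown at the outermost of its 4 starts and at the first of its inner starts, because the peak covers only the inner ones. Kmt2c has the most CpG of the starts listed for the 7 genes, Kmt2a is the catalytic gene with the highest fold enrichment, and Rbbp5 is the CpG-poorest of the marked starts.

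Dpy30 inner start (chr17:74316434-74316683, minus strand, in the peak): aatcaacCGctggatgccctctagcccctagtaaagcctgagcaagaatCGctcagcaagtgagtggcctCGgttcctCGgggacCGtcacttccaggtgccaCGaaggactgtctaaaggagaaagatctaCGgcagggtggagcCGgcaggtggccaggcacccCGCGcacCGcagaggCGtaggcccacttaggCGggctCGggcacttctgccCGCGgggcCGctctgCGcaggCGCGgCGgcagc
Dpy30 outer start (chr17:74323945-74324194, minus strand, no peak): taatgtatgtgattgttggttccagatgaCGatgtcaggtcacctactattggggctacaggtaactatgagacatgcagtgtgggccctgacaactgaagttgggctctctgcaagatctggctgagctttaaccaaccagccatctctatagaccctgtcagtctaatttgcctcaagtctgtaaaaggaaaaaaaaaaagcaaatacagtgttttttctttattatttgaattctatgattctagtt
Kmt2c (chr5:25498784-25499033, minus strand, in the peak): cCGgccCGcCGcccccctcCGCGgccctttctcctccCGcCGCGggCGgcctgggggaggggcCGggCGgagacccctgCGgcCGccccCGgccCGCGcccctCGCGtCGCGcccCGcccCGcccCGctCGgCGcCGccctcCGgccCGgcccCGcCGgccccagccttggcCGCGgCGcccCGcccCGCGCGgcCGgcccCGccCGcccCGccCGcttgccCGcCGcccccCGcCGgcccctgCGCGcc
Kmt2a (chr9:44881290-44881539, minus strand, in the peak): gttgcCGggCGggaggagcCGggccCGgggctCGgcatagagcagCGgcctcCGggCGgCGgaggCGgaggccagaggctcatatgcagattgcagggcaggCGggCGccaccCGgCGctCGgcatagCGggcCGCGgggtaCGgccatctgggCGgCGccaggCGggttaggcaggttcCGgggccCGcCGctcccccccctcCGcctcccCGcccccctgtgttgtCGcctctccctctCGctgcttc
Rbbp5 (chr1:132477117-132477366, plus strand, in the peak): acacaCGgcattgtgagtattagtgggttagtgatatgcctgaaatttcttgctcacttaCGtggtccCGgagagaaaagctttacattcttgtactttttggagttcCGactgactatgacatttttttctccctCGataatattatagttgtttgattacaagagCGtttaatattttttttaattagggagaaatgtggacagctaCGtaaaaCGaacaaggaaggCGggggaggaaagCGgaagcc

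The Dpy30 sequences come from 1 gene and differ in CpG: the inner one holds 21 and the outer one 1. Kmt2c holds 48 CpG, Kmt2a 29 and Rbbp5 10. Of the starts not printed, Kmt2d has 26 CpG, Setd1a 25 and Wdr5 12, and the other 2 inner starts of Dpy30 have 28 and 34.

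All 10 genes had an H3K4me3 peak by the rule. Over all protein-coding genes 61.5% had one. For the 7 genes with a listed start, all 7 had a peak within 1 kb of one, against 58.0% of coding genes in the same table. Single peaks lay on 8 genes and Kmt2d and Setd1a had 2 each. Of the 12 peaks 9 had the score of 3100 that 3926 peaks of the list share (10 times the negative log10 of the caller's p-value), so the score does not rank them, and fold enrichment and tag counts are used below. The strongest peak was the same by fold enrichment and by tags in 9 of the 10 genes, the exception being Kmt2d.

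As a group the 10 genes lay above the middle of all marked coding genes. Their highest fold enrichment had a median of 49.02 and ran from 36.9 at Ash2l to 56.0 at Dpy30, against a median of 39.06 (quartiles 29.2 and 46.3) over 13462 coding genes with a peak. Of the 10 genes 8 lay above the 50th percentile of those genes, all but Ash2l and Wdr5. By tags in the peak with the most tags the 10 genes had a median of 591, against 336 (quartiles 213 and 481) over coding genes, and all 10 lay above the 50th percentile. These are descriptions of 1 library, and no test was made, since genes are not replicates.

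**Figure D1:**
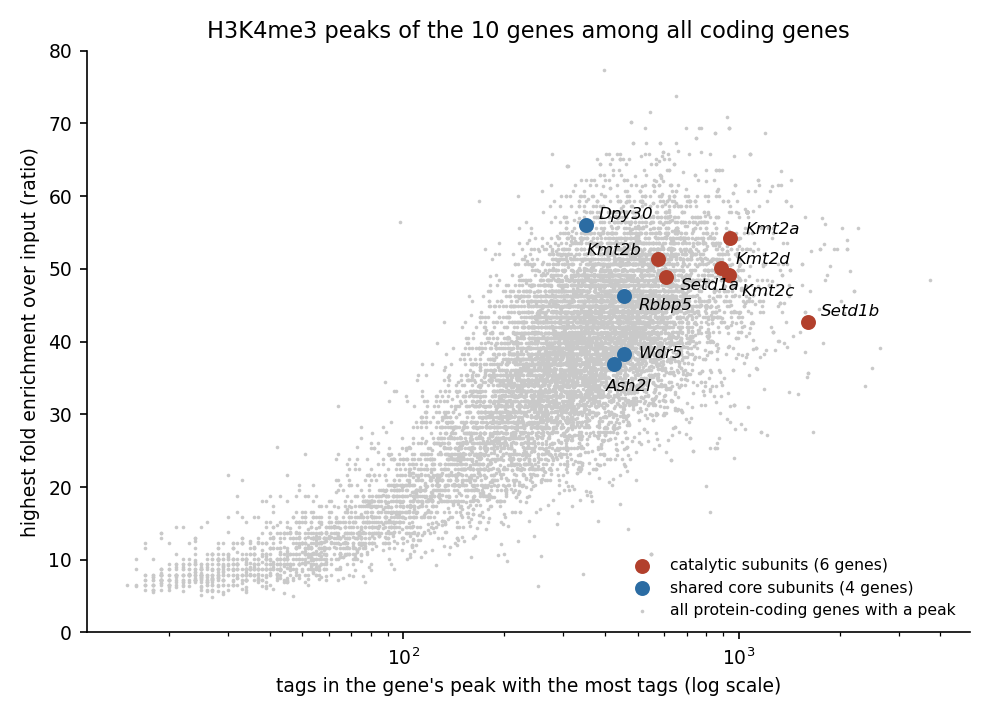
Highest fold enrichment over the input (vertical axis, ratio) against tags in the peak with the most tags (horizontal axis, log scale), 1 point per gene: red for the 6 catalytic genes, blue for the 4 core genes, grey for coding genes with a peak. The catalytic genes lie to the right, at 574 to 1613 tags, and the core genes at 352 to 456. The 1613 tags of Setd1b include those over Rhof, and the 574 of Kmt2b come from a peak that also covered part of Zbtb32. For Kmt2d the fold (50.16) and the tags (888) come from different peaks.

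The largest peaks at the genes of the catalytic subunits held more tags than those at the core genes. The peaks at Kmt2b and Setd1b also covered parts of neighbouring coding genes, and their tags count in full here. Kmt2a, the founding mixed-lineage leukaemia gene, had 946 tags in its peak (exact Poisson 95% interval 887 to 1008, which covers counting error only, as do all intervals here). Its fold enrichment of 54.2 lay at the 94.5 percentile of marked coding genes, and its tags at the 97.7 percentile. The peak covered 4944 bp of mm10 chromosome 9 (44878696 to 44883639), with 2657 bp inside the gene and 2287 bp outside. No end of another annotated gene lay within 1 kb of it.

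Kmt2b, the closest relative of Kmt2a, had 574 tags (528 to 623) and a fold enrichment of 51.4, at the 89.6 percentile. Its interval does not overlap that of Kmt2a, but per kb of peak Kmt2b held 197 tags and Kmt2a 191. The peak of Kmt2b (chromosome 7, 30587183 to 30590099) was shorter, at 2917 bp, and 1874 bp of it lay in the gene. It was also within 1 kb of an end of Zbtb32, a zinc-finger transcription factor gene 624 bp away, of the long non-coding RNA gene Gm32082 and of the microRNA gene Mir3569, so it cannot be given to Kmt2b alone.

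Kmt2c and Kmt2d, the enhancer-associated pair, had peaks of similar size at their starts. Kmt2c had 937 tags (878 to 999) with a fold enrichment of 49.2 over 4527 bp (chromosome 5, 25496543 to 25501069). Kmt2d had 888 tags (831 to 948) with 49.9 over 4230 bp at its start (chromosome 15, 98869005 to 98873234). The intervals of the 2 genes overlap. Kmt2c is the longest of the 10 genes, at 227 kb, and this was the only peak called over it. The peak of Kmt2c also covered the listed start of the long non-coding RNA gene 4831440E17Rik.

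Kmt2d had a further peak at its other end (chromosome 15, 98829815 to 98832346), with 347 tags (311 to 386) and a fold enrichment of 50.2. That is the highest fold over Kmt2d, but the peak covered a listed start of Prkag1, a gene for a regulatory subunit of AMP-activated kinase, and none of Kmt2d. It overlapped Kmt2d by 678 bp and Prkag1 by 1694 bp. The peak at the start of Kmt2d lay within the annotated gene span, whose outer end is 2872 bp from the listed start and 843 bp beyond the peak.

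Setd1a and Setd1b, the bulk trimethylases, differed most in the extent of the mark. Setd1b lay under 1613 tags (1535 to 1694) over 9664 bp (chromosome 5, 123134953 to 123144616), at the 99.8 percentile of tags and the 99.6 percentile of width. Its fold enrichment of 42.7 was the lowest of the catalytic genes, at the 62.6 percentile. Of the 9664 bp, 2577 lay in Setd1b and 6856 in Rhof, a small GTPase gene whose end is 232 bp from that of Setd1b, although the summit lay in Setd1b, 1041 bp inside its end. The tags of the whole peak are therefore no measure of Setd1b alone.

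Setd1a had 608 tags (561 to 658) over 2763 bp (chromosome 7, 127775955 to 127778717) with a fold enrichment of 48.9. It had the densest of the peaks, at 220 tags per kb of peak, the 97.9 percentile. The peak came within 1 kb of an end of Orai3, a calcium channel gene, without touching it (805 bp). A weak second peak of 36 tags (25 to 50) and a fold enrichment of 10.9 lay 324 bp beyond the other end of Setd1a. It covered the listed start of Hsd3b7, an enzyme gene of bile acid synthesis, and no base of Setd1a. It was the only one of the 12 peaks wholly outside the gene to which the rule assigned it. The nearest peak that the rule left out lay 2743 bp from Dpy30, at an end of Memo1.

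The genes of the core had 352 to 456 tags, with fold enrichments of 36.9 to 56.0. Wdr5, the WD-repeat scaffold that holds the enzymes' interaction motif, had 456 tags (415 to 500) and a fold enrichment of 38.3 over 2665 bp (chromosome 2, 27513973 to 27516637). Rbbp5, which contacts the SET domain together with Ash2l, had 455 tags (414 to 499) with 46.3 over 2573 bp (chromosome 1, 132476082 to 132478654). Ash2l had 425 tags (386 to 467) with 36.9, the lowest fold of the 10 genes, over 2686 bp (chromosome 8, 25839513 to 25842198). The intervals of these 3 genes overlap one another. The peak of Rbbp5 also covered the listed start of the long non-coding RNA gene 6030442K20Rik, while no other gene end lay near the peaks of Wdr5 and Ash2l.

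Dpy30, the small subunit that binds Ash2l as a dimer, combined the highest fold of the 10 genes with the lowest number of tags in a largest peak. That peak held 352 tags (316 to 391) over 2262 bp (chromosome 17, 74314998 to 74317259), near the middle of marked coding genes at the 53.2 percentile of tags and the 51.6 percentile of width. Its fold enrichment of 56.0 lay at the 96.2 percentile. Per kb it held 156 tags, the 54.6 percentile.

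Across the groups, in the peak with the most tags, the 6 catalytic genes had 574 to 1613 tags with a median of 912.5, and the 4 core genes had 352 to 456 with a median of 440. The groups do not overlap there, against a median of 336 over all coding genes with a peak. The highest core value, 456 at Wdr5, lay at the 71.3 percentile of marked coding genes. The lowest catalytic value, 574 at Kmt2b, lay at the 85.1 percentile. The peak of Kmt2b also covered 420 bp of Zbtb32, and the 1613 tags of Setd1b include those over Rhof. Where Kmt2b or Setd1b alone would lie is therefore not known. With the peak of highest fold instead, the catalytic genes had 347 to 1613 tags, since that of Kmt2d is the one at Prkag1, and the core genes 352 to 456, and the ranges overlap. Per kb of peak the catalytic genes had 167 to 220 tags and the core genes 156 to 177, and these ranges do overlap. Fold enrichment overlapped as well, with a median of 49.67 in the catalytic genes and 42.31 in the core genes. Width depended on the peak taken for Kmt2d: around the peaks with the most tags, joined across gaps of up to 1 kb, the catalytic genes spanned 2763 to 9664 bp and the core genes 2262 to 2686 bp, while with the highest-fold peak of Kmt2d the catalytic range began at 2532 bp, inside that of the core. Every peak of 3 catalytic genes (Kmt2b, Setd1a and Setd1b) came within 1 kb of an end of another coding gene, and no peak of the core genes did. What neighbours add to the tags of these genes was not tested.

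Over all 10 genes, 5 had a peak that came within 1 kb of no other annotated gene end (Kmt2a, Kmt2d, Ash2l, Wdr5 and Dpy30), against 40.3% of all coding genes and 65.6% of the 13462 coding genes with a peak. Counting only ends of coding genes as neighbours, 7 of the 10 had such a peak, with Kmt2c and Rbbp5 added, against 47.6% of all coding genes and 77.3% of those with a peak. Since all 10 genes had a peak, the shares among genes with a peak are the closer background. Both counts lay below them, but with 10 genes the differences are small and were not tested. The count of 5 also varied from 4 to 7 with the setting.

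The summit lay before the start at 3 of the 4 catalytic genes with a listed start. At 7821 coding genes with 1 listed start inside a peak, the summit lay after the start in 81.6%, at a median of 208 bp into the gene (quartiles 110 and 354). Among the 7 listed genes the summit lay after the start in 4, at 566 bp in Kmt2a, 131 bp in Wdr5, 333 bp in Rbbp5 and 188 to 410 bp in Dpy30, according to the inner start used. It lay before the start in the other 3, all catalytic: by 677 bp in Kmt2c, 665 bp in Kmt2d and 541 bp in Setd1a, which are at the 2.48, 2.6 and 3.81 percentiles of coding genes. In Kmt2c that side also holds the start of 4831440E17Rik, and in Kmt2d it is still within the annotated gene. At Setd1a no other listed start lay in the peak. Whether unlisted starts lie there was not tested.

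In the 4 listed catalytic genes, and in Wdr5 and Rbbp5, the reach of the mark upstream lay at a higher percentile of coding genes than its reach into the gene. The peaks of Kmt2c and Rbbp5 also cover the listed starts of 4831440E17Rik and 6030442K20Rik. In Kmt2d the upstream side lies within its annotated gene. The reach was not divided between starts. Upstream the peak ran 2350 bp from the start in Kmt2a, 2286 in Kmt2c, 2029 in Kmt2d and 1434 in Setd1a, at the 97.8, 97.6, 96.2 and 86.8 percentiles, against a coding-gene median of 798 bp. In the core it ran 1174 bp in Wdr5 and 1285 in Rbbp5, at the 76.4 and 81.8 percentiles, and 826 to 1048 in Dpy30, at the 52.6 to 69.3 percentiles. Into the gene the peaks ran 2593 bp in Kmt2a, 2240 in Kmt2c, 2200 in Kmt2d and 1328 in Setd1a, at the 93.1, 89.2, 88.6 and 52.9 percentiles, against a coding-gene median of 1294 bp. In the core they ran 1490 bp in Wdr5 and 1287 in Rbbp5, at the 64.1 and 49.5 percentiles, and 1213 to 1435 in Dpy30, at the 42.9 to 60.7 percentiles.

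**Figure D2:**
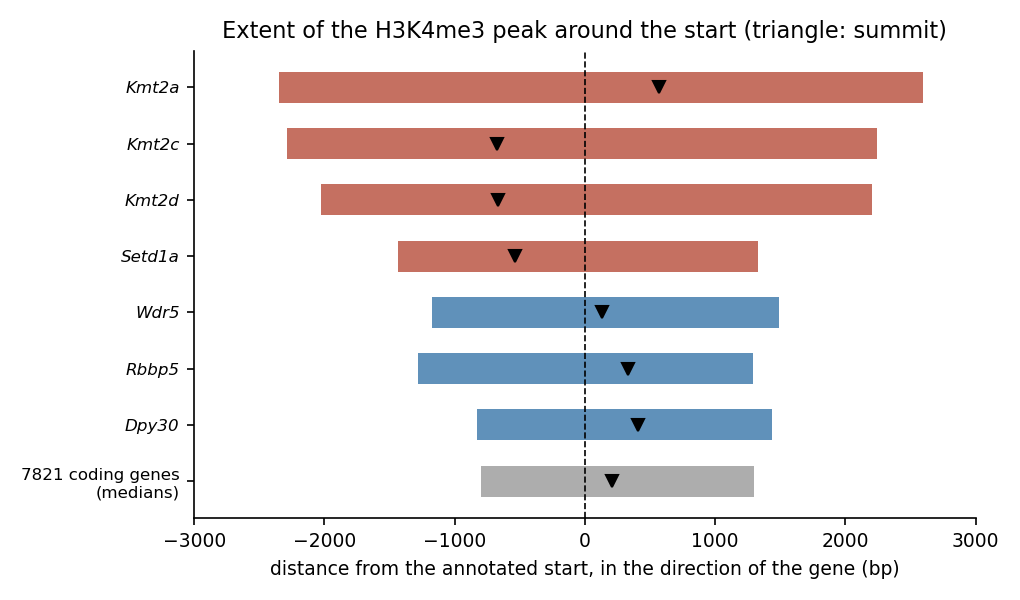
Extent of the peak (bars) and position of its summit (triangles) around the annotated start at 0, in the direction of the gene (horizontal axis, bp), for the 7 genes with a listed start, with medians over 7821 coding genes at the bottom. Kmt2c, Kmt2d and Setd1a have their summit left of the start; Dpy30 is drawn from its first inner start.

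The peaks of Dpy30 and Ash2l lay within the gene, away from both ends. Dpy30 is 24.5 kb long, and its 4 listed starts fall into 2 places: the outer start at the end of the gene, and 3 inner starts 7511 bp or more into it that lie within 222 bp of each other. The peak covered the 3 inner starts. The outer start was 6685 bp from the peak, which was the nearest on the chromosome, so no peak was called at it. In Ash2l the peak lay 5496 bp from the nearer end of the gene, and its starts are not shown here.

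**Figure D3:**
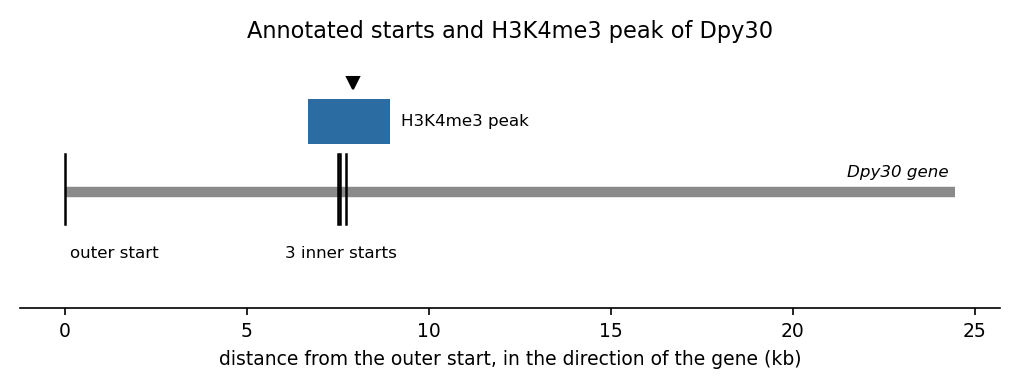
Map of Dpy30 along the direction of the gene (horizontal axis, kb from the outer start): the grey line is the gene, black ticks are the 4 listed starts, the blue bar is the H3K4me3 peak and the triangle its summit. The peak runs from 6.685 to 8.946 kb and covers the 3 inner starts, while the outer start carries none.

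A gene marked at some of its starts and not at others was common. Of 1268 coding genes with listed starts over 2 kb apart, 54.6% had a peak within 1 kb of some but not all of them, 21.7% had one at all and 23.7% at none. Dpy30 is 1 of the 692 genes marked at some.

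The marked starts of the 7 listed genes were CpG-rich or close to the middle of coding starts. The 4 listed catalytic starts had 25 to 48 CpG in the 250 bases upstream, at the 86.9 to 99.8 percentiles of 21263 coding starts. Wdr5 with 12 and Rbbp5 with 10 lay at the 56.4 and 51.2 percentiles, and the inner starts of Dpy30 at 79.5 to 95.9. The unmarked outer start of Dpy30, with its 1 CpG, lay at the 10.8 percentile. Over all coding starts the share inside a peak went with CpG: 8.19% with at most 4 CpG were in a peak, 46.9% with 5 to 9, 81.9% with 10 to 14 and 95.8% with 30 or more. The 9 marked and 1 unmarked starts of these 7 genes thus fell where most starts of like CpG content did.

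**Figure D4:**
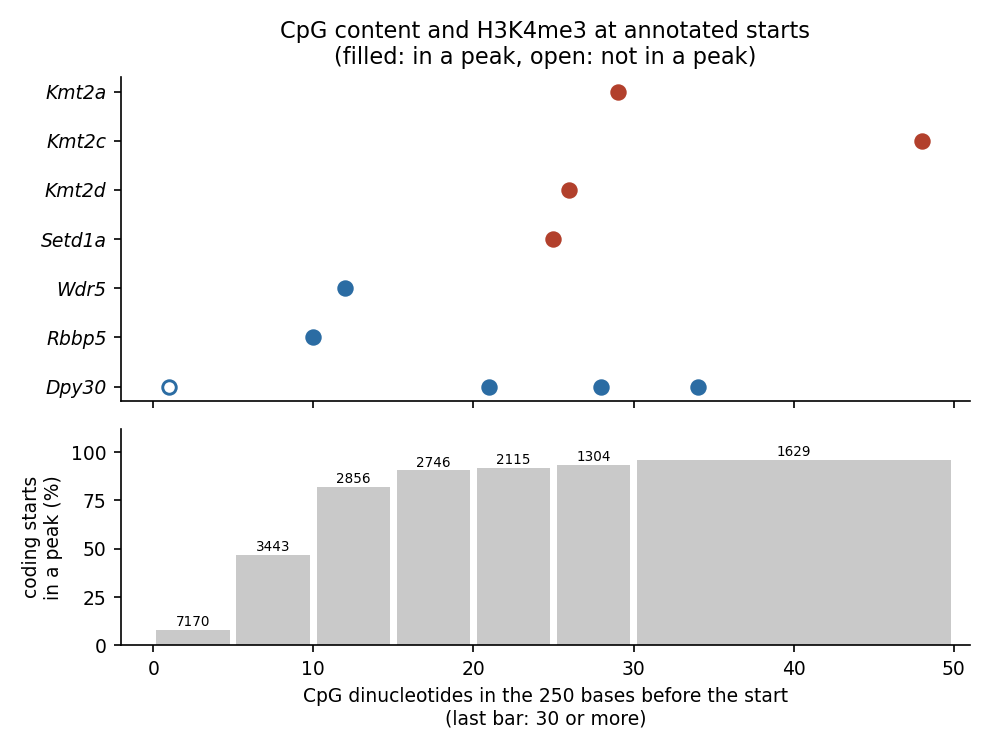
Top, CpG dinucleotides in the 250 bases before each listed start (horizontal axis), with filled circles for starts in a peak and an open circle for the outer start of Dpy30. Bottom, the percentage of coding starts inside a peak by CpG count, with the number of starts above each bar; it goes from 8.19% at 0 to 4 CpG to 95.8% at 30 or more.

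Short motifs were searched for in the same 250 bases on both strands. The letters GGGCGG, a GC box, were found at 4 of the 7 genes with a marked start (Kmt2a, Kmt2c, Kmt2d and Wdr5), against 42.6% of all coding starts and 64.0% of those in a peak. Kmt2c alone held 12 matches, some overlapping each other, and Kmt2a and Kmt2d held 4 each. AAGATGG, the core of YY1 motifs, matched at Setd1a and Wdr5, against 4.13% of coding starts and 4.02% of those in a peak. GGAAGT, the core of ETS motifs, and TGCGCA, from the NRF1 motif, both matched before the first inner start of Dpy30, against 20.4% and 8.06% of coding starts and 22.3% and 12.4% of those in a peak. TGCGCA lay 20 to 15 bases before that start and within the 250 bases of all 3 inner starts. Neither CCAAT nor TATAAA matched at a marked start of the 7 genes, against 35.4% and 11.6% of coding starts and 36.1% and 5.34% of those in a peak. The outer start of Dpy30 held 1 CCAAT. No match overlapped a match of another motif. A match is a match of letters and not evidence of binding.

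Genes that work with or against these complexes were marked as well. Of 60 genes in 5 other lists 59 had a peak, against 61.5% of all protein-coding genes, the background for each list count below. The exception was Smyd1, a methyltransferase gene of heart and skeletal muscle. All 10 listed genes for subunits particular to some of the complexes had a peak, with a median highest fold of 43.2. Pagr1a, a subunit of the Kmt2c and Kmt2d complexes, had 49.2 in a joined region of 4.37 kb, where an end of Prrt2 also lay. Wdr82, which ties the Setd1 enzymes to RNA polymerase II, had 48.97 over 3.27 kb, and Kdm6a, an H3K27 demethylase in the Kmt2c and Kmt2d complexes, had 37.6 over 4.32 kb.

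Among other enzymes described as H3K4 methyltransferases, with Kmt2e, 6 of 7 had a peak and the median highest fold was 48.8. Kmt2e, a relative of the Kmt2 enzymes whose SET domain is not known to methylate histones, had the highest fold of the 5 lists, at 58.6 over 7.62 kb with 1438 tags, next to an end of 5031425E22Rik. Ash1l, better known for H3K36 methylation, had 52.1 over 3.52 kb, where an end of Dap3 also lay.

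The listed genes of enzymes that remove methyl groups from H3K4 had a peak in 6 of 6 cases, with a median highest fold of 40.2. They include the Kdm5 enzymes, which act on trimethylated H3K4, and Kdm1a, which acts only on its lower methylation states. Kdm5a had 45.5 over 3.53 kb, shared with an end of Ccdc77, Kdm1a had 44.1 over 2505 bp, and Kdm5b had 41.4 over 3.09 kb, shared with an end of Mgat4e. All 11 listed genes of H3K4me3 readers had a peak, with a median of 44.7. Ing1, a reader with a PHD finger, had 52.8 over 5.11 kb, Ing2 had 49.2 over 4.12 kb, shared with an end of AA386476, and Taf3, the reader in the general factor TFIID, had 51.03 over 2.49 kb.

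All 26 listed core-subunit genes of the Polycomb complexes, which act against the Trithorax-related Kmt2 enzymes, had a peak, with a median of 42.3. Phc2 lay under the widest joined region of the lists, 10.5 kb, with a highest fold of 42.01 at a peak that also lay by Gm33712, and Pcgf2 under 6.37 kb with 53.5. Phc3 had the highest fold of the list, 54.2. The medians of these 5 lists, 40.2 to 48.8, lay below the 49.0 of the 10 genes and above the 39.1 of all marked coding genes. All 10 genes lie on autosomes, while the lists hold genes of the sex chromosomes with folds below that 39.1. These were Phf8 (25.31), Kdm5c (27.59), Rbbp7 (32.55), Hcfc1 (33.99) and Kdm6a (37.61) on X and Kdm5d (32.55) on Y. What sex linkage adds to the list medians was not tested. Single genes of the lists overlapped the 10 genes widely, and the differences between lists were not tested.

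**Figure D5:**
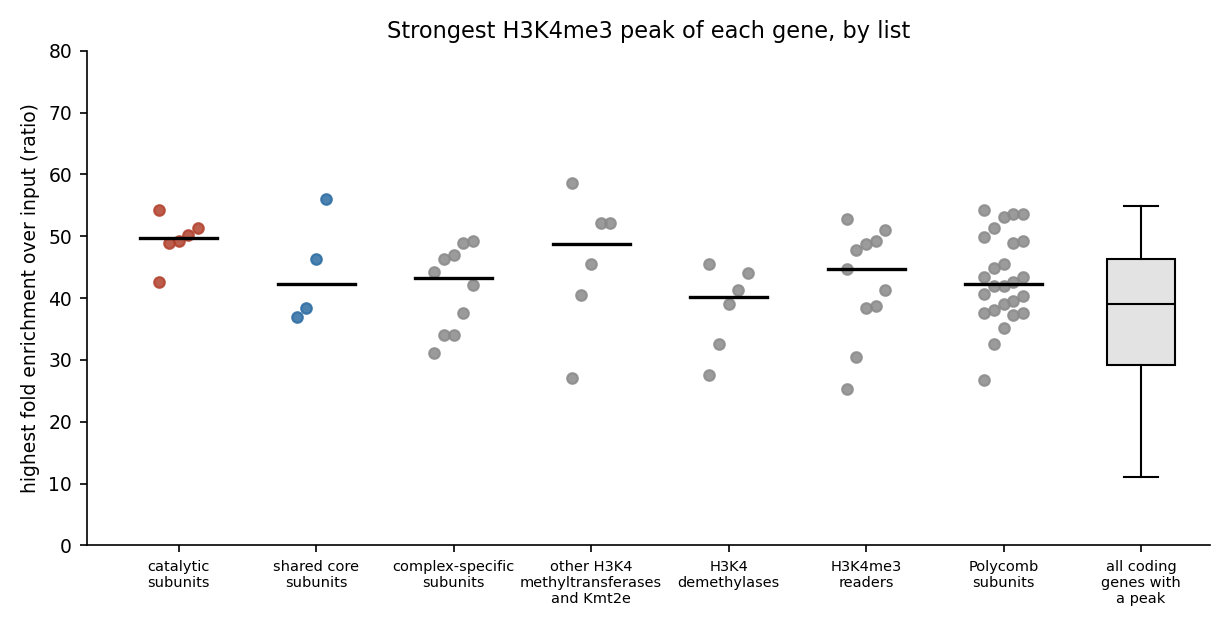
Highest fold enrichment over the input (vertical axis, ratio) of each gene with a peak, by list; bars are medians, red and blue mark the 10 genes, and the box shows the quartiles of 13462 coding genes with whiskers at the 5th and 95th percentiles. The catalytic genes sit between 42.7 and 54.2 and the core genes between 36.9 and 56.0, within the spread of the other lists.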

How the data were processed

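The H3K4me3 peak list of the 1 H3K4me3 library, called against the 1 input library, was analysed. The genome build is mm10, per the submitters' processing notes, and the name of an aligner was not given in the sources used here. The authors called peaks with MACS 1.4.2, per the file header, at a p cutoff of 1e-05, with at most 1 tag per position and the larger library scaled towards the smaller; the submitters' processing notes name MACS2 2.1.0. Tags per peak are whole counts, not normalized, per the file header. The deposited score is 10 times the negative log10 of the caller's p-value, fold enrichment is the authors' ratio to the input, and the deposited false discovery rate is in percent. These are the authors' values, used only within the list. Keeping 1 tag per position limits counts in strong peaks, and sites below the cutoff are not listed.

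With Python 3.11.15, pandas 2.3.3 and scipy 1.17.1, peaks were joined to RefSeq genes (GRCm38.p6) by an overlap of at least 1 bp with the gene plus 1 kb, and to the starts in RefSeq's promoter table. The summit position is the peak start plus the deposited offset minus 1. Percentiles are over coding genes with a peak and place ties at their middle rank. The overlap and joining steps were tested on simulated data. Intervals are exact Poisson 95% intervals and cover counting error only, since there is 1 H3K4me3 library. They treat the tags kept, at most 1 per position, as independent molecules. The strongest peak of a gene is that of highest fold. The genes, lists and alternatives were chosen with earlier results of these data known. Named were all 10 genes and their peaks and, in each other list, the genes without a peak, the 2 with the widest joined region and the 2 of highest fold, plus every gene with an end at a peak of the 10 genes. Other thresholds, windows and joining distances were tried as alternatives. A gene that the rule names is not reported here.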

Additional observations from a re-analysis of the deposited data

How the results depend on the processing

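The count of 10 of 10 genes with a peak held for peaks with a -log10 p of at least 10, a false discovery rate of at most 1% (the list's maximum is 0.32%) or a fold enrichment of at least 10, for the summit in place of the overlap, for flanks of 500 and 2500 bp and for the gene alone; it was 8 with either gene end (56.3% of coding genes), where Ash2l and Dpy30 dropped out. The 7 of 7 genes with a peak at a listed start held under the first 6 of these. The 5 genes with an unshared peak (40.3% of coding genes) were 7 by summit (43.9%), 6 with 500 bp (41.8%) and 4 with 2500 bp (36.4%). These shares are over all coding genes, marked or not. Among coding genes with a peak, 9612 of 13269 had an unshared peak by summit. With 500 bp these were 9140 of 13388, and with 2500 bp 7960 of 13686. The median percentile of the highest fold, 84.4, was 87.8 when all 10 genes were ranked against coding genes whose strongest peak is not shared. Of the 10 genes themselves, 4 had an unshared strongest peak, against 7973 of the 13462 coding genes with a peak. The median joined width of 2724 bp was 2840 bp with the peaks of most tags, because only Kmt2d changes its peak, and it was equal without joining and with gaps of 3 kb. List counts were equal by p threshold and by summit. Depth limits the statement at the outer start of Dpy30, where a site below the cutoff would not be listed.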

Other observations

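Several strong peaks lay just outside the windows of the 10 genes and belong to neighbours. The peak between Psenen and U2af1l4, 4.44 kb from Kmt2b, had a fold enrichment of 67.3 and 484 tags, above the 51.4 of Kmt2b itself. Psenen encodes a subunit of gamma-secretase, the protease that cleaves Notch receptors. The peak at Memo1, 2.74 kb from Dpy30, held 714 tags with a fold enrichment of 50.6, against the 352 tags of Dpy30. The peak at Fbxl19 and Orai3, 6.33 kb from Setd1a, held 401 tags with 48.5. Rbbp5 was the most isolated on one side, with the next peak 253 kb beyond it (36 tags, fold enrichment 15.2).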
